A study of Mus musculus with 4 samples.

Results

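The dynein arm preassembly factors are the 10 genes Dnaaf1, Dnaaf2, Dnaaf3, Dnaaf4, Dnaaf5, Dnaaf6, Dnaaf11, Zmynd10, Ccdc103 and Spag1. They were listed by name and looked up by gene symbol in a table of read counts for 18471 genes. Of the 10, 9 had a row there; Dnaaf6 was not analysed here. The counts come from RNA sequencing of mouse retinas at embryonic day 19, with 2 embryos labelled wild-type and 2 labelled Foxn3KO. The second group is Foxn3-/- and lacks exon 3 of Foxn3, which encodes a forkhead transcription factor, in the line C57BL/6NJ-Foxn3em1(IMPC)Bay/Mmnc. Per the labels, each library was made from the retina of 1 genotyped embryo; no treatment is named for either group. The study asks about a transcriptional network, Foxn3 included, that controls primary cilia in the developing retina.

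Dynein arms are the motor complexes that project from the outer doublet microtubules of motile cilia and sperm flagella and make them beat. Their subunits are folded and joined in the cytoplasm before they are carried into the cilium. The preassembly factors do this work together with the Hsp90 chaperone and its cochaperones, and loss of most of them causes primary ciliary dyskinesia in people. Retinal neurons and their progenitors carry primary cilia, which lack dynein arms and do not beat. Genes of motile cilia are known targets of the transcription factor Foxj1 and of the regulatory factor X (RFX) proteins, which bind the X-box motif.

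Promoter sequences are shown first, because the measured preassembly factors moved together and the X-box is the motif best known for cilia genes. RefSeq promoters (build GRCm38.p6), which run from 250 bases before to 50 bases after the annotated start, were matched by symbol for 6 of the 9 measured members. Each was scanned for the 14-letter X-box consensus, which is GTTGCC followed by AT and GGCAAC and reads the same on both strands, and the best match is given in capitals in a 40-base window.
Zmynd10: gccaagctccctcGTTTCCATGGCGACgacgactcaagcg
Dnaaf2: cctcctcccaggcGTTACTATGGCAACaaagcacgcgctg
Dnaaf4: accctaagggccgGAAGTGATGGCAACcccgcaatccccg
Dnaaf3: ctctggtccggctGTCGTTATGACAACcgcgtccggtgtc
Dnaaf5: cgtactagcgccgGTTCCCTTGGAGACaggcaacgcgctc
Ccdc103: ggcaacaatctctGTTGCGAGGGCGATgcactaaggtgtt
The windows lie, in the coordinates of GRCm38.p6, as follows: Zmynd10 at chr9:107547291-107547330 (plus strand), Dnaaf2 at chr12:69198420-69198459 (minus strand), Dnaaf4 at chr9:72958771-72958810 (plus strand), Dnaaf3 at chr7:4532602-4532641 (minus strand), Dnaaf5 at chr5:139150204-139150243 (plus strand), Ccdc103 at chr11:102881228-102881267 (plus strand). Zmynd10 and Dnaaf2 matched 12 of the 14 letters, and 1.2% of 32544 distinct promoters of the same length matched at least that many. Dnaaf3, Dnaaf4, Dnaaf5 and Ccdc103 matched 10, and 12.2% of promoters matched at least 10. The half-motif GTTGCC, on either strand, was found in 5 of the 6 promoters, Dnaaf3 being the one without it, against 12.4% of promoters. The lower-case flanks of Dnaaf5 and Ccdc103 hold it as GGCAAC. In Dnaaf2 and Dnaaf4, GGCAAC lies within the capitals, so the same letters count in both scans. The forkhead core TAAACA, on either strand, was in the promoter of Dnaaf2 only among the 6 (13.4% of promoters), and GACGC, an alternative core bound by FOXN proteins, in 3 of the 6 (27.3%). These motifs were chosen with the sequences in view. The matches are descriptions of letters, not binding sites.

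The whole window of Zmynd10 (chr9:107547054-107547353, plus strand, 300 bases) is printed because Zmynd10 had the largest rise of the 9; capitals mark the match of 12 letters, which begins at the annotated start.
Zmynd10 promoter: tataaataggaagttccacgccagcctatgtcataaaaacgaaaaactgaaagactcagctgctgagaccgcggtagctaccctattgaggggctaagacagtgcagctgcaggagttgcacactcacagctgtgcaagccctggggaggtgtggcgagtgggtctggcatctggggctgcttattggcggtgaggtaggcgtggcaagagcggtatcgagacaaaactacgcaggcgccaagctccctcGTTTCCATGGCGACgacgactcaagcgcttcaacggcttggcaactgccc
The related lists were scanned in the same way. Of the 4 further dynein assembly genes that were measured and had a RefSeq promoter, 2 matched at least 12 letters. Of the 15 axonemal dynein chains that were measured and had one, 0 matched at least 12 and 3 matched at least 10. In the other lists, described below, 1 of 7 TRiC chaperonin, 2 of 9 cochaperone and 1 of 8 cytoplasmic dynein-1 genes matched at least 10. Of all promoters, 12.2% matched at least 10 and 1.2% at least 12. Differences between the lists were not tested.

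Total counts ranged from 22543531 to 29360129, and a floor of 3 counts corresponded to 0.103 to 0.134 CPM (counts scaled to a common library size, corrected by the trimmed mean of M values). Foxn3 itself was higher in the libraries labelled Foxn3KO (144 CPM in each) than in those labelled wild-type (97.6 and 99.8 CPM); gene counts do not resolve exon 3, so every direction below rests on the labels. Wild-type replicate 1 had 83073 counts of Xist and each other library at most 19. Read as a marker of sex, Xist makes wild-type replicate 1 female and the other libraries male. The wild-type pair was thus mixed in sex and the Foxn3KO pair was not. None of the 9 measured members lies on a sex chromosome, but autosomal genes can also differ by sex, and its part was not tested. Without wild-type replicate 1, the log2 fold changes of Dnaaf3, Dnaaf4 and Dnaaf5 were 1.79, 2.21 and 0.969. With all 4 libraries they were 2.01, 1.95 and 1.09. Those of Dnaaf2, Dnaaf11, Zmynd10 and Ccdc103 without it were 0.956, 2.18, 4.37 and 2.64. Values for Dnaaf1 and Spag1 without it are given below. Foxj1 had 7.70 and 8.32 CPM under the wild-type label and 177 and 175 CPM under the Foxn3KO label. The retinal markers Pax6 and Crx, transcription factors of retinal progenitors and of photoreceptors, had 19004 to 24577 and 5573 to 7005 counts in the 4 libraries. By the test given below, neither was called. Of the 14 retinal markers listed, 4 were called higher and 1, Isl1, lower, against 12.3% and 9.66% of all tested genes. Log2 fold changes of the 14 ran from -0.23 to 0.28.

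All 9 measured members passed the filter on low counts, 8 of them in every library. Dnaaf1 passed through the libraries labelled Foxn3KO alone, so it had to differ and is left out of the counts that follow. Of the 8, 8 were called higher in the libraries labelled Foxn3KO (edgeR quasi-likelihood test, two-sided, Benjamini-Hochberg adjustment over 17300 genes, adjusted p under 0.05), and 0 lower; 12.3% of the tested genes were called higher, 9.66% lower and 21.9% in either direction. A log2 fold change over 1 was reached by 6 of the 8, against 2.86% of the tested genes. Dnaaf5, 1 of the 6, was at 1.09, and at 0.969 without wild-type replicate 1. In 8 of the 8 the 2 groups did not overlap in CPM, with the libraries labelled Foxn3KO above; 29.9% of the tested genes showed that pattern and 30.5% the opposite one. The log2 fold changes of the 8 ran from 0.30 to 4.33 with a median of 1.98, and the median of all tested genes was -0.00470. With 2 libraries a group, an exact permutation of the labels of a single value cannot give a p below 0.333, so the tests rest on a spread estimated across genes.

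Markers of other tissues were measured beside this result. In bulk retina, more cells that express a gene and more RNA in each cell cannot be told apart, which holds for every rise given here. Lens markers moved with the groups: 9 of 9 tested were called higher, against 12.3% of all tested genes. Their summed level was 9.07 and 69.2 CPM under the wild-type label and 321 and 320 CPM under the Foxn3KO label. The lens alpha-crystallin gene Cryaa had 8 and 776 counts under the wild-type label and 4055 and 3053 under the Foxn3KO label. In the 2 wild-type libraries, whose lens sums differed, the summed level of the 9 preassembly factors was 55.6 and 61.7 CPM, against 182 and 193 CPM in the other group. Without wild-type replicate 1, the library with the low lens sum, 8 of the 8 members were again called higher, Spag1 included, and 24.3% of tested genes were called. Of the pigment epithelium and ciliary body list, 3 of 7 tested genes were called lower and 0 higher. Of all tested genes, 9.66% were called lower and 12.3% higher. The sums of this list were 52.9 and 76.5 against 40.3 and 42.2 CPM.

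Tissues that carry motile cilia were covered by 3 lists. No gene of the lens, choroid plexus, ependymal or pigment lists that had a row was at 0 in any library. Every row held at least 16 counts over the 4 libraries, and some listed genes had no row. The absence of a 0 therefore does not show that these tissues were present. Of the choroid plexus list, 2 of 7 tested genes were called higher and 2 lower, against 12.3% and 9.66% of all tested genes. The sums were 17.6 and 23.0 against 20.8 and 20.4 CPM. Ttr, the transthyretin gene, had 88 and 138 counts under the wild-type label and 70 and 55 under the Foxn3KO label. Folr1, a folate receptor gene, had 36 and 30 counts against 146 and 106 (log2 fold change 1.94, adjusted p = 4.08e-06 in edgeR). Aqp1, a water channel gene, had 43 and 37 counts against 107 and 78 (log2 fold change 1.22, adjusted p = 0.000836 in edgeR). Clic6, a chloride channel gene, had 66 and 134 counts against 34 and 34 (log2 fold change -1.53, adjusted p = 0.00103 in edgeR). Of the ependymal genes outside the axoneme, 4 of 8 were tested and 0 were called, with sums of 1703 and 1694 against 1743 and 1755 CPM, nearly all from Nnat and Cd24a, which the retina also expresses. At an unadjusted p under 0.05, 1 of the 4, Cd24a, passed in edgeR. None of the 9 airway genes was analysed here. The part of these tissues, the lens included, in the rise of the preassembly factors was not tested.

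**Figure D1:**
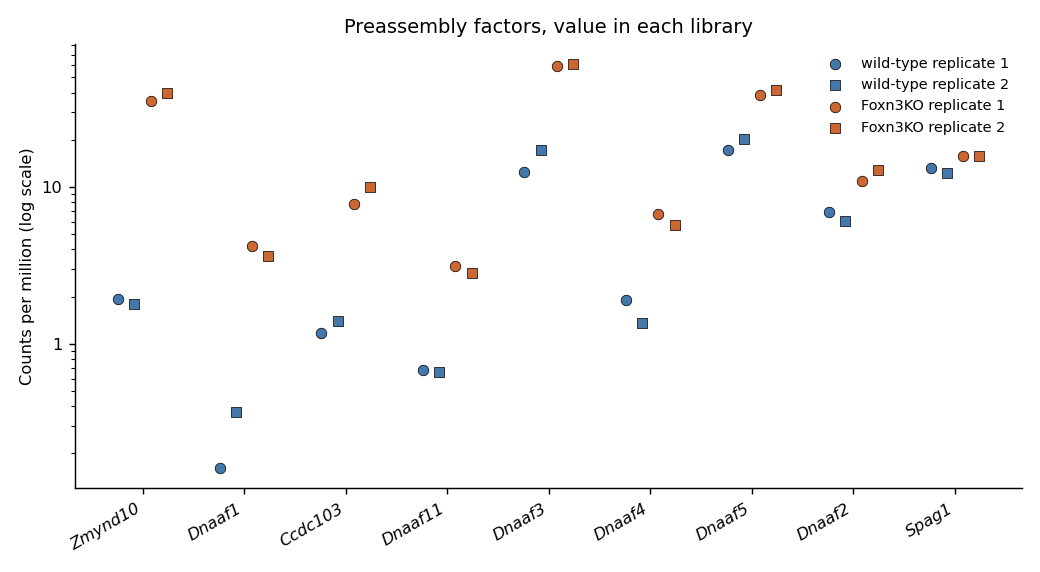
CPM of the 9 measured preassembly factors in each of the 4 libraries, on a log scale; circles are replicate 1 and squares replicate 2. In each gene both libraries labelled Foxn3KO sit above both labelled wild-type, with the widest gap for Zmynd10 (1.80 and 1.94 against 35.3 and 39.8 CPM) and the narrowest for Spag1 (12.3 and 13.2 against 15.7 in each).

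The first group of members are adaptors to the Hsp90 machinery. Dnaaf2 (ENSMUSG00000020973), known as kintoun, has a PIH domain and serves the assembly of dynein arms in the cytoplasm. It had 171 and 165 counts under the wild-type label, compared with 320 and 286 under the Foxn3KO label. That is 6.48 ± 0.582 against 11.9 ± 1.26 CPM (SD, n = 2 each), and the groups did not overlap. Its log2 fold change was 0.87 (SE 0.13, edgeR adjusted p = 7.56e-05).

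Dnaaf4 (ENSMUSG00000092192), formerly Dyx1c1, has tetratricopeptide repeats and binds Dnaaf2 and Hsp90. It had 47 and 37 counts under the wild-type label, compared with 196 and 129 under the Foxn3KO label. The CPM rose from 1.63 ± 0.377 to 6.25 ± 0.686 (SD, n = 2 each), and the log2 fold change was 1.95 with an SE of 0.21 (adjusted p = 1.48e-06 in edgeR). Its wild-type replicate 1 was the higher of that pair, the reverse of Dnaaf3 and Dnaaf5 below.

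Spag1 (ENSMUSG00000037617), a tetratricopeptide protein that binds GTP and also serves sperm, changed least. It had 328 and 335 counts under the wild-type label, compared with 458 and 351 under the Foxn3KO label. The CPM was 12.8 ± 0.634 against 15.7 ± 0.0393 (SD, n = 2 each), and the log2 fold change was 0.30 with an SE of 0.096 (adjusted p = 0.0346 in edgeR). The groups did not overlap, but the call is not stable. It was lost in DESeq2 (adjusted p = 0.176, with 14.1% of genes called by that tool) and in edgeR fits without wild-type replicate 2 (adjusted p = 0.111), without Foxn3KO replicate 1 (adjusted p = 0.166) or without Foxn3KO replicate 2 (adjusted p = 0.145). Those 3 fits called 28.6%, 13.1% and 13% of the genes they tested. In the authors' deposited table Spag1 has an adjusted p of 0.171, the only one of the 9 members above 0.05 there.

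The second group contains Zmynd10 and 2 leucine-rich repeat proteins. Zmynd10 (ENSMUSG00000010044) carries a MYND zinc finger and binds Dnaaf11, and it is needed for both inner and outer dynein arms. It had 48 and 49 counts under the wild-type label, compared with 1028 and 892 under the Foxn3KO label. The CPM rose from 1.87 ± 0.0934 to 37.6 ± 3.20 (SD, n = 2 each), a 20.0-fold difference, and the log2 fold change was 4.33 with an SE of 0.11 (adjusted p = 5.79e-15 in edgeR). Of the 17300 tested genes, 41 had a larger log2 fold change.

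Dnaaf11 (ENSMUSG00000022375), formerly Lrrc6, is the partner of Zmynd10. It had 17 and 18 counts under the wild-type label, compared with 92 and 63 under the Foxn3KO label. The CPM rose from 0.674 ± 0.0163 to 2.99 ± 0.245 (SD, n = 2 each), and the log2 fold change was 2.15 with an SE of 0.29 (adjusted p = 2.30e-05 in edgeR). The partners therefore differed in size of rise, 20.0-fold against 4.43-fold; that difference between the genes was not tested.

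Dnaaf1 (ENSMUSG00000031831), the other leucine-rich repeat protein, had the lowest level of the members under the wild-type label. It had 4 and 10 counts under the wild-type label, compared with 123 and 81 under the Foxn3KO label. The exact 95% Poisson intervals of the low pair were 1.09 to 10.2 and 4.80 to 18.4 counts, which cover counting error only. The lower interval of the high pair starts at 64.3 counts. The filter fixed the direction of this gap, so the gap is not evidence of a difference. The log2 fold change was 3.85 (SE 0.34); since the gene passed the filter only through the group where it is high, no test is given. With wild-type replicate 1 left out the estimate was 3.41, and with wild-type replicate 2 left out it was 4.58.

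The third group acts at other steps. Dnaaf3 (ENSMUSG00000055809) is a cytoplasmic assembly factor without a known chaperone domain. It had 308 and 471 counts under the wild-type label, compared with 1724 and 1361 under the Foxn3KO label. The CPM rose from 14.9 ± 3.48 to 59.99 ± 1.11 (SD, n = 2 each), and the log2 fold change was 2.01 with an SE of 0.10 (adjusted p = 7.71e-11 in edgeR). The wild-type pair was uneven, 12.4 and 17.3 CPM, but both were far below the other group.

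Dnaaf3 counts carry a further limit. In the GENCODE annotation, Dnaaf3 overlaps Tnni3, the cardiac troponin I gene, on the same strand. Tnni3 had 176 and 166 counts under the wild-type label, compared with 920 and 682 under the Foxn3KO label, a log2 fold change of 2.23 (SE 0.097, edgeR adjusted p = 5.64e-12). How reads in the overlap were assigned is not given in the sources used here, so the values of Dnaaf3 and Tnni3 are uncertain with respect to each other.

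Dnaaf5 (ENSMUSG00000025857), a protein of HEAT repeats, had the highest CPM of the members under the wild-type label. It had 427 and 554 counts under the wild-type label, compared with 1125 and 927 under the Foxn3KO label. The CPM rose from 18.8 ± 2.24 to 40.0 ± 1.95 (SD, n = 2 each), and the log2 fold change was 1.09 with an SE of 0.083 (adjusted p = 1.83e-08 in edgeR). Both wild-type values, 17.2 and 20.4 CPM, lay below the lower of the other group, 38.6 CPM.

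Ccdc103 (ENSMUSG00000020930) is a coiled-coil protein that binds microtubules and is needed to anchor the assembled arms. It had 29 and 38 counts under the wild-type label, compared with 226 and 225 under the Foxn3KO label. The CPM rose from 1.28 ± 0.162 to 8.90 ± 1.62 (SD, n = 2 each), and the log2 fold change was 2.77 with an SE of 0.20 (adjusted p = 1.08e-08 in edgeR).

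**Figure D2:**
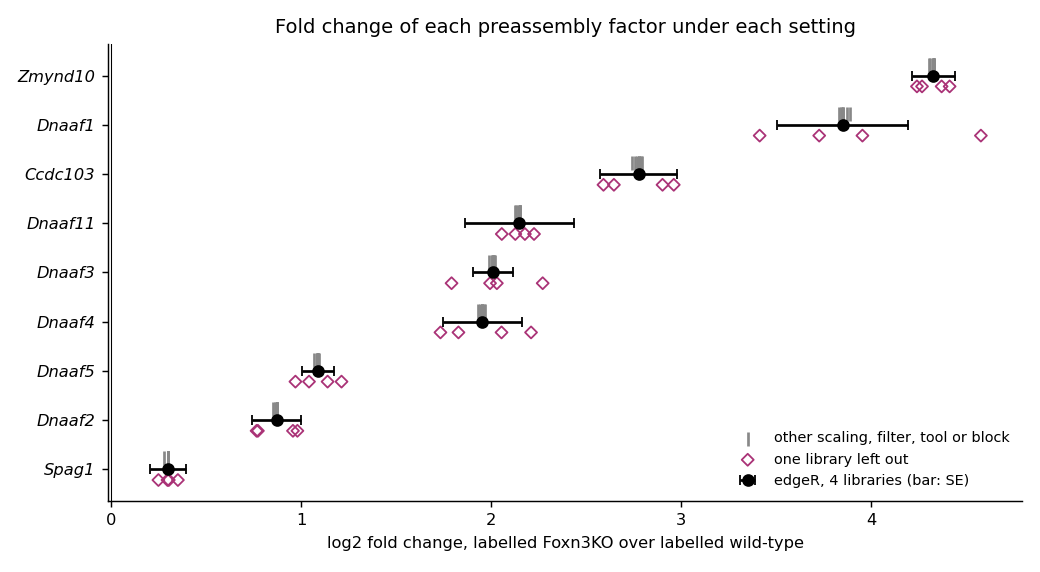
Log2 fold change of each preassembly factor, labelled Foxn3KO over labelled wild-type; black points with bars are the edgeR estimate ± SE from 4 libraries, grey ticks other scalings, filters, tools or the replicate block, and open diamonds fits with one library left out. No point falls below 0, and the widest range is that of Dnaaf1, from 3.41 to 4.58.

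Levels of different members were compared on FPKM (a level per gene length and library size, deposited by the authors). In the libraries labelled wild-type, Dnaaf3 (6.66 ± 1.57 FPKM) and Dnaaf5 (5.33 ± 0.642 FPKM) were highest (SD, n = 2 each), and their ranges overlapped. Dnaaf2 (1.91 FPKM) and Spag1 (1.14 FPKM) followed, each separate from its neighbours in the order. Zmynd10 (0.875), Dnaaf4 (0.821) and Ccdc103 (0.677 FPKM) came next, and each overlapped with the next of the 3. Dnaaf11 (0.322 FPKM) and Dnaaf1 (0.0935 FPKM) were lowest and apart from each other.

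In the libraries labelled Foxn3KO the order was different. Dnaaf3 remained first at 26.9 ± 0.499 FPKM (SD, n = 2), and Zmynd10 moved from rank 5 to rank 2 with 16.5 and 18.7 FPKM, above Dnaaf5 at 11.4 ± 0.555 FPKM, with no overlap among these 3. Ccdc103 (4.70 FPKM) moved above Dnaaf2 (3.49) and Dnaaf4 (3.15 FPKM), the latter pair overlapping. Dnaaf11 (1.43), Spag1 (1.40) and Dnaaf1 (1.39 FPKM) ended at levels whose ranges overlapped from each to the next. The highest mean FPKM was 71.3 times the lowest in the group labelled wild-type and 19.4 times in the group labelled Foxn3KO.

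The make-up of the set shifted accordingly. Summed over the 9 members, the level was 16.5 and 19.2 FPKM under the wild-type label and 69.2 and 73.6 FPKM under the Foxn3KO label. Zmynd10 supplied 5.48% and 4.41% of that sum in the first pair and 23.9% and 25.3% in the second. Dnaaf5 went the other way, from 29.6% and 30.2% to 15.8% and 15.95%, although its own level rose. The share of Dnaaf3 was 33.7% and 40.6% in the first pair and 38.4% and 37.0% in the second, values that overlap.

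**Figure D3:**
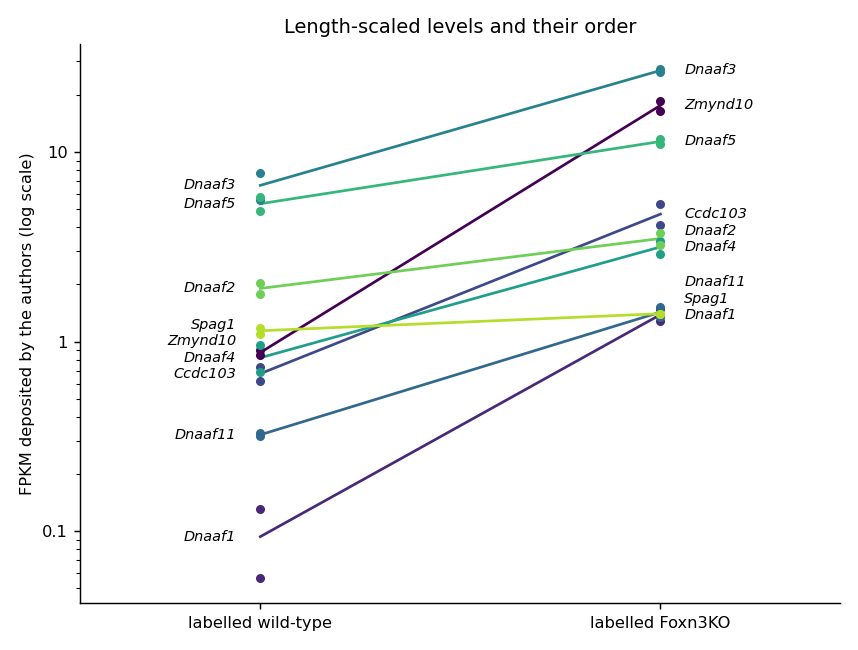
Length-scaled levels (FPKM deposited by the authors, log scale) of the 9 measured members; points are single libraries and lines join the group means. Lines cross where the order changes, as for Zmynd10, which passes from 0.875 to 17.6 FPKM, and the 3 lowest members at right end within 1.39 to 1.43 FPKM.

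The cochaperone list holds the R2TP complex (Ruvbl1, Ruvbl2, Rpap3, Pih1d1), its relatives Pih1d2 and Dnaaf10, Hsp90 itself and some of its partners. Of 11 tested genes, 7 were called higher and 0 lower, where 12.3% and 9.66% of all tested genes were, with a median log2 fold change of 0.22. Pih1d2, a PIH-domain protein related to Dnaaf2, rose most, from 3.55 and 3.53 CPM under the wild-type label to 17.6 and 18.2 CPM under the Foxn3KO label (log2 fold change 2.33, SE 0.12, edgeR adjusted p = 7.52e-11). The AAA+ ATPases Ruvbl1 and Ruvbl2 rose by 0.46 and 0.33 on the log2 scale (adjusted p = 7.75e-06 and 4.78e-05 in edgeR). Hsp90ab1, at 529 FPKM in the group labelled wild-type the most abundant of the list, rose by 0.22 (adjusted p = 0.000609 in edgeR).

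The TRiC chaperonin, the ring complex that folds tubulin and actin, had 4 of 8 subunits called higher and 0 lower. Of all tested genes, 12.3% were called higher and 9.66% lower. The median log2 fold change of the 8 was 0.11. Cct3 rose by 0.20, Cct7 by 0.17, Cct6a by 0.14 and Cct2 by 0.13 on the log2 scale (adjusted p = 0.00172, 0.00569, 0.0268 and 0.0313 in edgeR). These calls depended on the libraries: without Foxn3KO replicate 1 or without Foxn3KO replicate 2, 0 of 8 were called in edgeR, with 2 and 3 at an unadjusted p under 0.05, where 13.1% and 13% of all tested genes were called. Without wild-type replicate 1, 6 of 8 were called, where 24.3% of all tested genes were. Under total count scaling 2 were called, and DESeq2 called 4.

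The next list holds further genes that serve dynein assembly or delivery. Of the 7 listed, 6 were tested, and Daw1 was not analysed here. Of the 6, 5 were called higher, against 12.3% of all tested genes, with a median log2 fold change of 1.22. Cfap298, which acts with the preassembly factors, went from 28.6 and 25.7 CPM to 85.2 and 78.3 CPM (log2 fold change 1.59, SE 0.066, edgeR adjusted p = 3.24e-12). Ttc12, linked to inner arm assembly, rose by 1.57 and Lrrc56, linked to delivery of arms into the cilium, by 1.44 on the log2 scale (adjusted p = 1.83e-08 and 2.92e-11 in edgeR). The gene of this list that was not called, Dnaaf9, had a log2 fold change of 0.01 (adjusted p = 0.939 in edgeR); it is named after its value was seen.

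The clients of the preassembly factors are the axonemal dynein chains. Of the 23 listed, 18 were tested. Of these, 15 were called higher, against 12.3% of all tested genes, with a median log2 fold change of 1.64. Dnah10, an inner arm heavy chain, went from 0.524 and 0.699 CPM to 102 and 96.8 CPM (log2 fold change 7.32, SE 0.10, edgeR adjusted p = 1.60e-18). Dnai3, an inner arm intermediate chain, rose by 5.10, and Dnah9, an outer arm heavy chain, by 4.11 on the log2 scale (adjusted p = 1.07e-15 and 7.92e-16 in edgeR). Dnal4, a light chain with the highest FPKM of the list, rose by 0.59 (adjusted p = 8.17e-07 in edgeR).

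The 3 chains not called, named after their values were seen, were Dnah1 (log2 fold change 0.01, edgeR adjusted p = 0.978), Dnah8 (0.28, 0.447) and Dnah17 (-0.11, 0.916). Dnah8 and Dnah17 are outer arm heavy chains known from sperm. Under the wild-type label Dnah8 had 46 and 60 counts and Dnah17 had 16 and 9, so the precision there is low. Dnah7a, Dnah7b and Dnah7c are near-identical copies between which reads could be split, so their calls are uncertain.

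Cytoplasmic dynein-1, the motor of axonal and organelle transport, is not known to need the preassembly factors. Of its 11 listed genes, 4 were called higher and 0 lower (12.3% and 9.66% of all tested genes), with a median log2 fold change of 0.13. Dynll1, a light chain that axonemal dyneins also use, rose by 0.34, Dync1h1 by 0.18 and Dynll2 by 0.14 on the log2 scale (adjusted p = 4.90e-05, 0.0154 and 0.0188 in edgeR). Without Foxn3KO replicate 1 or without Foxn3KO replicate 2, 1 of the 11 was called, where 13.1% and 13% of all tested genes were.

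**Figure D4:**
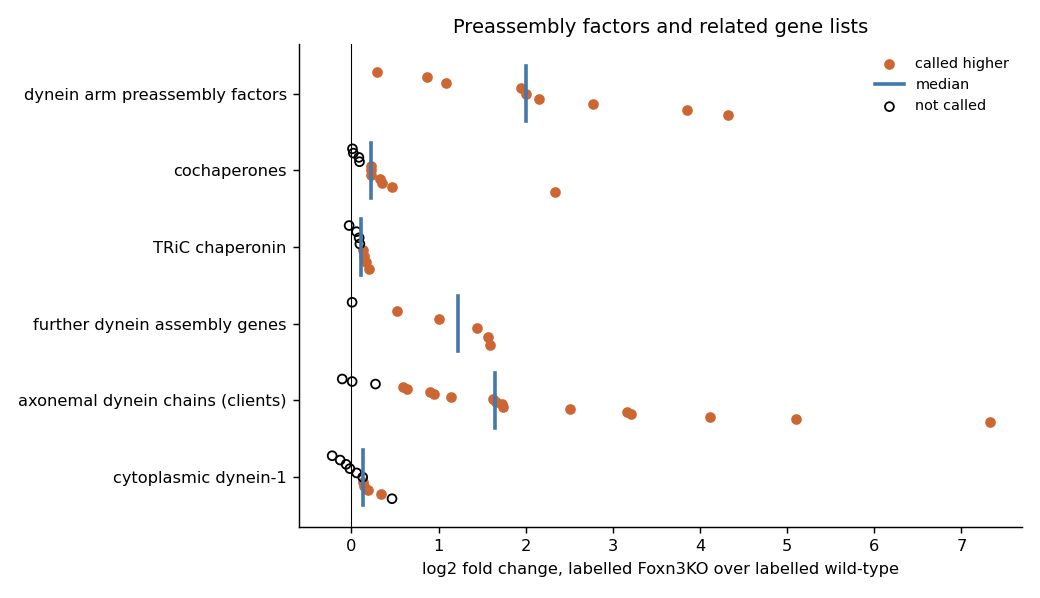
Log2 fold change of each tested gene by list, labelled Foxn3KO over labelled wild-type; filled points were called higher (edgeR adjusted p under 0.05), open points were not called and blue bars are medians. The medians of the preassembly factors (2.01 over 9 tested, Dnaaf1 included), further assembly genes (1.22) and axonemal chains (1.64) lie to the right of those of the cochaperones (0.22), TRiC (0.11) and cytoplasmic dynein-1 (0.13).

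Genes beside the members on the chromosome were also examined. The 9 members lie on chromosomes 5, 7, 8, 9, 11, 12 and 15. The 22 measured genes that overlap a member or lie nearest on either side had a median log2 fold change of -0.04; 7 were called higher and 3 lower, against 12.3% and 9.66% of all tested genes. Nprl2 and Rassf1 flank Zmynd10 and had log2 fold changes of -0.08 (adjusted p = 0.475 in edgeR) and -0.21 (adjusted p = 0.0199 in edgeR). Taf1c overlaps Dnaaf1 on the opposite strand, had 586 to 726 counts in each library and a log2 fold change of -0.03 (adjusted p = 0.816 in edgeR). Whether the counting used strand is not given in the sources used here.

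The neighbours of Ccdc103 moved in opposite directions. Eftud2, a spliceosome GTPase gene on the opposite strand, rose by 0.39 (adjusted p = 3.59e-06 in edgeR), and Gfap, the glial filament gene, fell by 1.02 in log2 units (adjusted p = 7.18e-08 in edgeR), from 793 and 762 counts to 424 and 338. Beside Dnaaf4, Ccpg1os rose by 1.42 (adjusted p = 1.29e-09 in edgeR). A non-coding gene, 9330151L19Rik, shares the promoter region of Dnaaf2 on the opposite strand and rose by 0.25 (adjusted p = 0.0209 in edgeR).

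**Figure D5:**
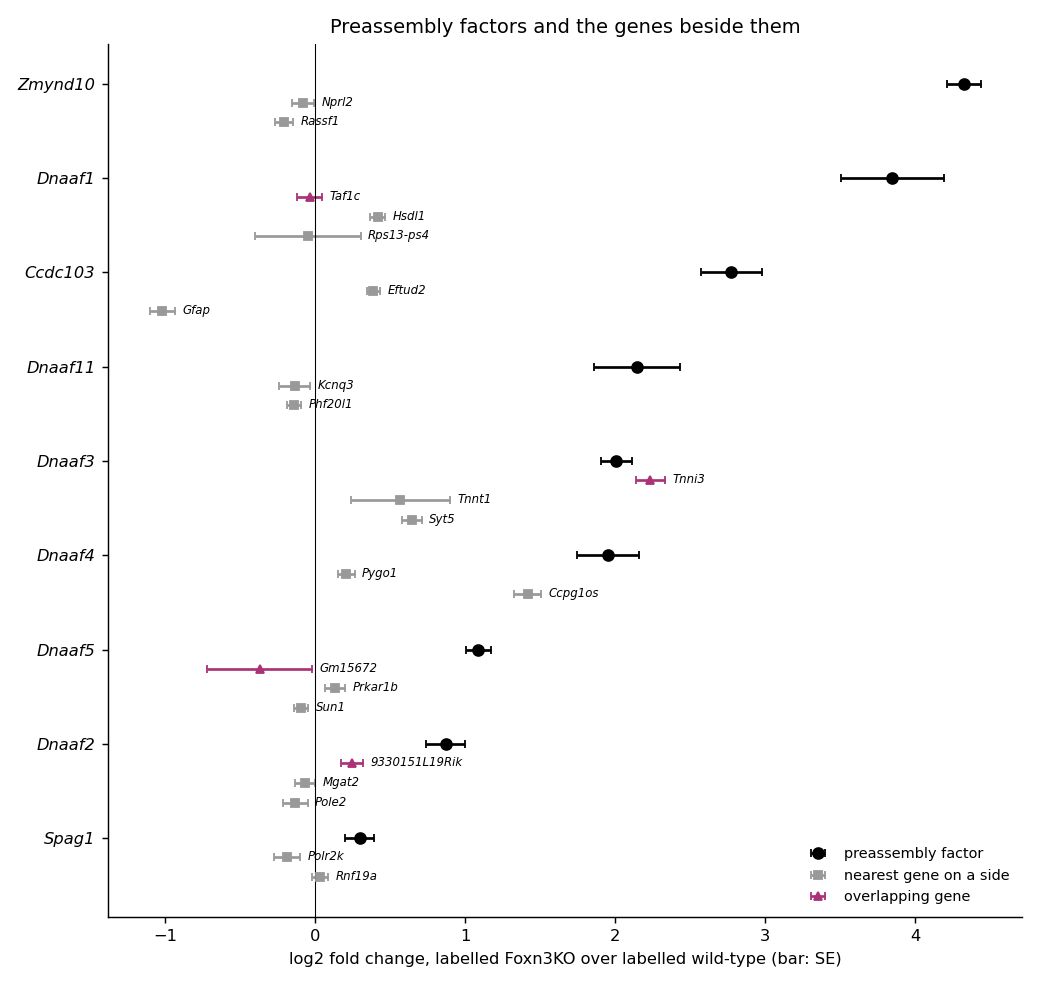
Log2 fold change ± SE of each preassembly factor (black) with the measured genes that overlap it (purple triangles) or lie nearest on either side (grey squares). Most neighbours lie near 0; Tnni3, which overlaps Dnaaf3, is at 2.23 and Ccpg1os, beside Dnaaf4, at 1.42.

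The gene with the smallest p among the members, Zmynd10, was used to find genes with the most similar values. By Euclidean distance between log2(CPM + 1) values in the 4 libraries, the nearest genes outside the member list were Aifm3 (0.376), Odad4 (0.440), Kif9 (0.499), Fhad1 (0.535) and Cfap95 (0.538). Aifm3 had 43 and 45 counts under the wild-type label, against 48 and 49 for Zmynd10, and 960 in Foxn3KO replicate 1, against 1028.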

How the data were processed

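RNA sequencing of 4 retinas was analysed from 1 table for the whole series, with columns matched to samples through the names in the labels. Its read counts are whole numbers that the authors deposited without normalization, and its FPKM values, also deposited by the authors, differed from the counts by a constant factor per library and gene. The table also holds the authors' deposited mean signal, log2 fold changes and p-values, of which only an adjusted p is quoted. DESeq2 and the build mm39 are named in the submitters' processing notes; the aligner, the counting tool, the annotation and the use of strand and of molecular identifiers are not given in the sources used here.

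A repeated gene identifier was dropped, and filterByExpr left 17300 of 18471 genes. The test was the quasi-likelihood F test of edgeR 4.0.16 under R 4.3.3 after TMM scaling (legacy=FALSE, genotype as the only term, two-sided, Benjamini-Hochberg over all tested genes, threshold 0.05). The SE is the log2 fold change divided by the root of F. On simulated data for this comparison, 17052 genes were tested, with 50 genes changed at each size on the log2 scale. Of those changed by 0.5, 58% were called, by 1, 90%, by 2, 90%, and by 3, 98%. In addition, 5 unchanged genes were called. The simulation gave every gene the same relative spread between libraries and none of the Xist or lens differences seen in the wild-type pair. These rates are therefore not those of the real data. Each library is 1 embryo per the labels, so the replicates are embryos. The spread behind each p-value was estimated partly across genes, so it is not that gene's own spread between embryos alone.

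Members and lists were chosen with earlier results of these data known. All members are named, with the 3 genes of smallest p and the most abundant gene of each related list, and the 5 genes nearest to the member of smallest p. Alternatives comprised DESeq2 1.42.0, limma-voom (limma 3.58.1), the earlier edgeR fit, RLE or total count scaling, a minimum of 10 counts per library or no filter, the replicate block, and omission of each library. Neighbours and strands came from GENCODE M21 (GRCm38), whose coordinates were not mixed with the table. Figures were drawn with matplotlib 3.10.9.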

Additional observations from a re-analysis of the deposited data

How the results depend on the processing

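Each member kept a positive log2 fold change in every alternative that gave it a value; at least 10 counts in every library removed Dnaaf1. Of 107 alternative values of the members, 103 stayed on the same side of the threshold, 11 of them from Dnaaf1, which had to differ. The other 4 were those of Spag1 in DESeq2 (0.300) and without wild-type replicate 2 or either Foxn3KO library (0.248 to 0.302); without wild-type replicate 1 Spag1 was at 0.350 and kept its call. The cause was not tested. DESeq2 called 2433 genes in all, 1541 higher and 892 lower, against 3795 in edgeR, and 7 of the 8 members past the filter minimum in every library. Leaving out 1 library gave 2323 to 5067 called genes, 7 to 8 of those 8 members, 5 to 8 cochaperones, 4 to 5 further assembly genes, 14 to 15 axonemal chains, 0 to 6 TRiC subunits and 1 to 5 cytoplasmic dynein-1 genes. These fits assume that the lone library varies like the other group. Under total count scaling 2 TRiC subunits were called, and 1916 genes were higher and 2060 lower, so that 48.2% of calls were higher; with TMM factors 2123 were higher and 1672 lower. The replicate difference of the wild-type pair had a correlation of 0.0153 with that of the Foxn3KO pair, over 17300 genes. With 1 difference in each group, this value does not settle whether replicate numbers pair embryos. With the replicate block, 4222 genes and 8 of the 8 members were called. Depth limits the fold of Dnaaf1, whose wild-type counts lie near the floor of 3.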
